A study of Mus musculus with 7 samples.

Results

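The Bcl2 family members described here were 10 genes taken by symbol: the survival genes Bcl2, Bcl2l1 and Mcl1, the pore-forming effectors Bax and Bak1, and the BH3-only genes Bad, Bid, Bcl2l11, Bbc3 and Pmaip1. All 10 were found among the 24552 gene symbols of the count table, and 8 of them were among the 7688 genes that had enough reads to be tested. RNA was measured by sequencing of transcript 3′ ends in 7 libraries. Each was made from EpCAM-positive cholangiocytes, which line the bile ducts, freshly isolated from mouse liver. All mice carried Foxp3GFPDTR, a transgene that places the diphtheria toxin receptor in cells expressing Foxp3, the transcription factor of regulatory T cells, and all were fed a diet with DDC, a porphyrinogenic agent that injures bile ducts, for 10 days. The PBS group (n = 4 libraries) received saline and the DT group (n = 3 libraries) received diphtheria toxin at 1 µg/kg, each injected into the peritoneum every 48 h. No group without DDC or without the transgene was analysed here, and the labels give neither ages nor whether the libraries represent different animals. Every p-value therefore measures the spread between libraries, which may be partly technical.

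Proteins of the Bcl2 family decide whether the outer membrane of the mitochondrion stays intact. When BAX or BAK assembles into pores there, cytochrome c escapes and caspases are activated. BCL2, BCL-XL (from Bcl2l1) and MCL1 hold these effectors in check, and BH3-only proteins, each of which senses a different kind of stress, bind the survival proteins or the effectors and tip the balance. In liver, bile duct cells are exposed to toxic bile acids during cholestasis, and MCL1 and BCL-XL are known to protect liver epithelium from apoptosis.

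The libraries held 4805018 to 6285624 reads assigned to genes, and 5419 to 8361 genes with at least 1 read. All 15 listed cholangiocyte markers had reads, with a summed level of 18844 to 24181 CPM (reads per 1000000 reads of a library, on library sizes scaled by TMM) in PBS and 21461 to 26546 in DT. Of 14 T and NK cell markers looked up, 11 had 0 counts in all 7 libraries, Foxp3 among them. Of the others, the granzyme gene Gzma had 821 and 286 counts in DT 1 and DT 2 and 0 elsewhere, Gzmb had 195 in PBS 4 alone, and Cd8a had at most 1. The list summed to 0 to 37.5 CPM in PBS and 0 to 133 CPM in DT. Hepatocyte markers, 18 of 24 with reads and Cps1 and Cyp3a11 at 0, summed to 2262 to 3950 CPM in PBS and 3835 to 5735 in DT. Of these, Alb averaged 996 CPM in PBS and 1677 in DT, and Gc 1302 and 1779. Among the 11 tested hepatocyte markers, 10 had positive log2 fold changes (DT over PBS) and 1 negative, with a median of 0.79, and 0 passed the adjusted threshold. Macrophage markers, 13 of 15 with reads and Adgre1 at 0, summed to 851 to 2336 CPM in PBS, highest in PBS 4, and 1469 to 2039 in DT. Of this, Cd14 alone had 789 to 1436 CPM in a library. Among the PBS libraries Cd68, C1qa and C1qc had reads in PBS 4 only, whereas Csf1r had reads in all 7 libraries, with only 1 read in DT 1. Neutrophil markers summed to 0 to 421 CPM in PBS, highest in PBS 4, and 35.8 to 186 in DT. Stellate and fibroblast markers summed to 658 to 2217 CPM in PBS and 1103 to 2027 in DT, of which Rgs5 alone had 569 to 2084 CPM in a library. Y-linked reads were present in PBS 1 and the 3 DT libraries only. The sex of the animals, as far as these reads show it, thus went largely with the group. Its part cannot be told apart from that of DT. A fit with a term for the presence of Y-linked reads compares DT with PBS 1 alone. The part of these differences in the results on Bcl2 family genes was not tested, beyond the covariate fits given with the alternatives. In sorted bulk samples, fewer cells that express a gene and less of its RNA per cell cannot be told apart.

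None of the 8 tested members passed the test for a difference between DT and PBS. The edgeR quasi-likelihood test with Benjamini-Hochberg adjustment over 7688 genes called 0 of them higher and 0 lower at an adjusted p of 0.05, and 0 had an unadjusted p under 0.05. Over all genes the same test called 3 (0.039%), all lower in DT, and 269 (3.5%) had an unadjusted p under 0.05. DESeq2, which gave Bad no adjusted p, and limma-voom also called 0 members, while DESeq2 called 111 (1.44%) of all tested genes. Of the 8, 4 had positive and 4 negative log2 fold changes (DT over PBS), with a median of -0.11, beside 49.3% positive and a median of -0.02 over all tested genes. Each of the 8 had an edgeR adjusted p of 1.00.

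Mcl1 had the most reads of the 10 members in every library. It encodes a short-lived survival protein that restrains BAK and BAX. Its reads numbered 4377, 3189, 3375 and 3314 across PBS 1 to 4, against 5865, 4342 and 2828 across DT 1 to 3. The highest and the lowest library were both in DT, so that the DT range enclosed the PBS range on the CPM scale. The level averaged 689 ± 96.5 CPM over PBS libraries (SD, n = 4) against 744 ± 236 CPM over DT libraries (SD, n = 3). The log2 fold change was 0.11 (SE 0.32), with a 95% interval of -0.54 to 0.76, that is from 0.69-fold to 1.69-fold.

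Bcl2l1, which encodes the survival protein BCL-XL, had 737, 2295, 1075 and 930 reads across PBS 1 to 4, against 1066, 1288 and 1016 across DT 1 to 3. PBS 2 was the highest library and PBS 1 the lowest, and the 3 DT libraries lay between them. On the CPM scale the level averaged 244 ± 135 over PBS libraries (SD, n = 4) against 194 ± 35.9 over DT libraries (SD, n = 3). The log2 fold change was -0.33 (SE 0.57). The 95% interval ran from 0.36-fold to 1.77-fold. Without PBS 2 the log2 fold change was 0.13, with the opposite sign.

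Bcl2, the founding survival gene, was read far less. It had 139, 0, 158 and 420 reads across PBS 1 to 4, against 0, 177 and 161 across DT 1 to 3. PBS 4 was highest, and 1 library of each group was at 0, so the groups overlapped. The level averaged 34.7 ± 33.7 CPM over PBS libraries against 20.04 ± 17.5 CPM over DT libraries, and the log2 fold change of -0.79 had an SE of 3.01. It was 0.035 without PBS 4. In the GRCm38 annotation Mir3473f and Gm37053 overlap Bcl2 on the same strand, and D630008O14Rik on the opposite strand.

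**Figure D1:**
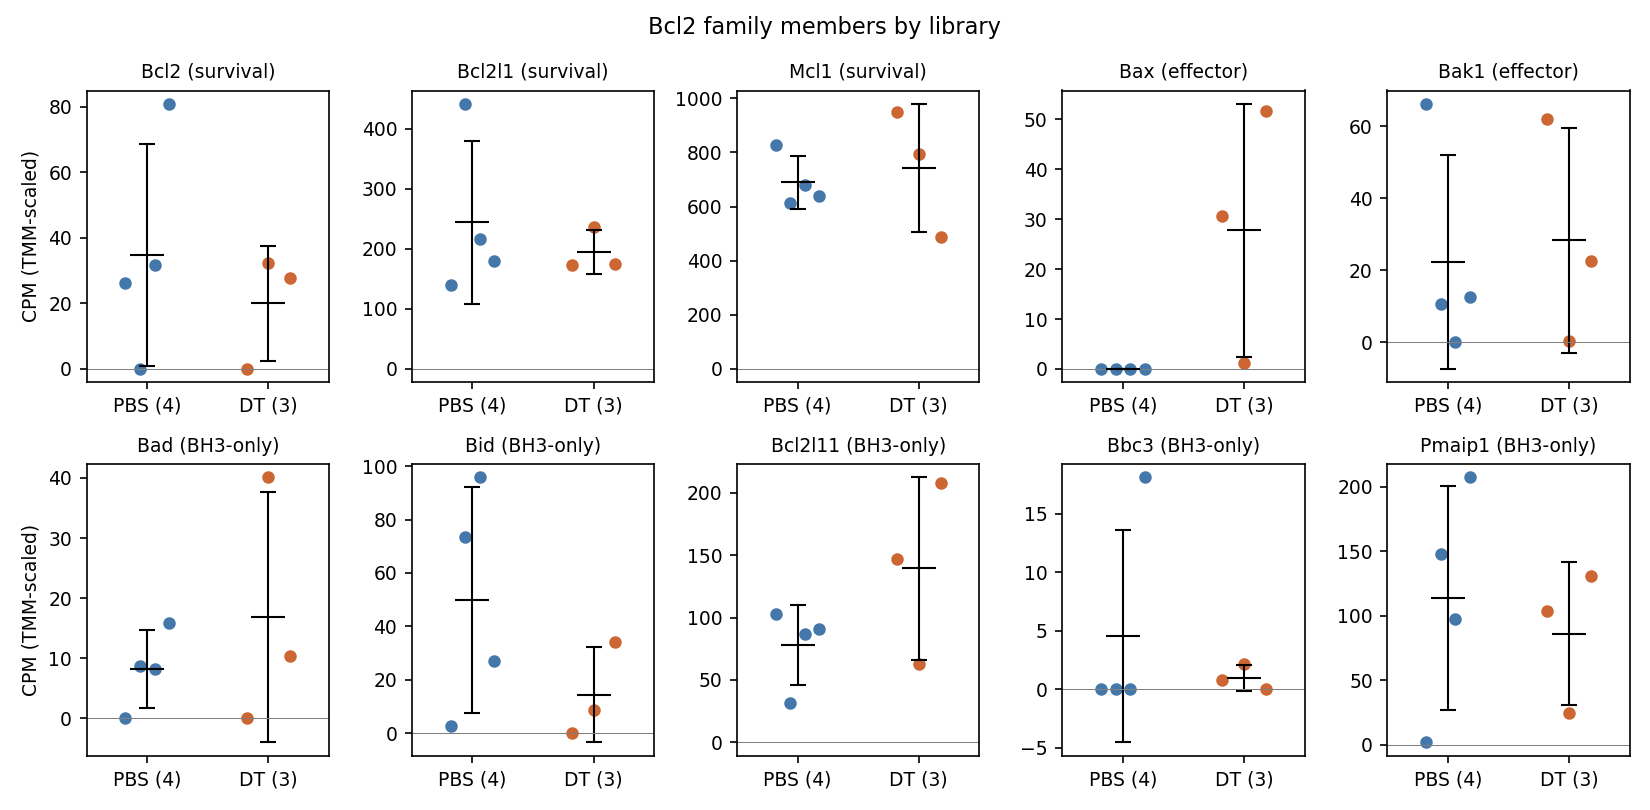
Level of each of the 10 members in CPM (TMM-scaled, linear axes that differ between panels) in the 4 PBS and 3 DT libraries, drawn in replicate order from left to right, with the mean and SD in black. The groups overlap in every panel except Bax, which is at 0 in all 4 PBS libraries and between 1.10 and 51.6 CPM in DT.

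Bax, an effector that moves to mitochondria and forms pores, was the single member of 10 whose groups did not overlap. It was not among the tested genes, of which 6.31% showed no overlap in either direction. It had 0 counts in each of PBS 1 to 4 and 189, 6 and 300 in DT 1 to 3. DT 2 stood close to 0, and the other DT libraries carried nearly all of the reads. The mean in DT was 27.8 ± 25.4 CPM (SD, n = 3). Against a floor of 3 counts per library in PBS this was at least 47.8-fold higher, a bound that covers counting error alone. Without DT 3 the value was 27.3-fold, and DT 2 alone lay 1.89-fold over the floor. The filter on low counts removed Bax. With no filter on low counts, which tests 11487 genes, Bax had an unadjusted p of 0.0376 and an adjusted p of 0.521 by edgeR, and did not pass. In that fit 0.0696% of genes passed and 2.72% had an unadjusted p under 0.05 and a higher level in DT, and in 2.63% of the 11487 genes every DT library was above every PBS library.

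Zeros across a whole group were seen in both directions at this level of reads. Of 2426 genes with a DT mean of 100 to 250 counts, the window that holds Bax, 232 (9.56%) were at 0 in all 4 PBS libraries. In the other direction, 252 of 2473 genes with a PBS mean in that window (10.2%) were at 0 in all 3 DT libraries. These numbers include genes with reads in only some libraries of the other group. Among the 11487 genes with a count, 38, Bax among them, had 0 counts in every PBS library and a count in every DT library. That pattern was taken from the values of Bax itself and its reverse was not counted, so the number is a description only. The predicted gene Gm45808 overlaps Bax on the same strand in the GRCm38 annotation, so where the gene models share sequence a read could belong to either.

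Bak1, the second effector, which sits in the mitochondrial outer membrane, had 350, 55, 0 and 65 reads across PBS 1 to 4, against 382, 2 and 131 across DT 1 to 3. PBS 1 and DT 1 were high and close to each other, while PBS 3 and DT 2 were at or near 0. The level averaged 22.3 ± 29.8 CPM over PBS libraries against 28.3 ± 31.2 CPM over DT libraries (log2 fold change 0.34, SE 2.99). Without DT 1 the sign turned (-0.99). Summed over both effectors, DT 1 to 3 held 92.5, 1.47 and 74.1 CPM, and PBS 1 to 4 held 66.3, 10.6, 0 and 12.5 CPM. PBS 3 and DT 2 thus had next to no effector reads.

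Among the BH3-only genes, Bcl2l11 and Pmaip1 had reads in every library. Bcl2l11 encodes BIM, which binds all of the survival proteins and can activate BAX directly. It had 543, 163, 434 and 472 reads across PBS 1 to 4, against 908, 342 and 1210 across DT 1 to 3. DT 1 and DT 3 lay above every PBS library and DT 2 lay below 3 of the 4. The level averaged 78.0 ± 31.8 CPM over PBS libraries (SD, n = 4) against 139 ± 73.1 CPM over DT libraries (SD, n = 3). The log2 fold change of 0.84 (SE 1.14) had a 95% interval of -1.46 to 3.13, and it was 0.42 without DT 3. Bcl2l11 was the only tested member whose fold change kept its sign under every alternative tried, and it passed the threshold under none.

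Pmaip1 encodes NOXA, which is known for binding MCL1. Its reads numbered 10, 770, 487 and 1078 across PBS 1 to 4, against 640, 133 and 760 across DT 1 to 3. PBS 1 was nearly without reads and PBS 4 had the most, so the PBS range enclosed the DT range. The level averaged 114 ± 87.1 CPM over PBS libraries against 86.3 ± 55.3 CPM over DT libraries, a log2 fold change of -0.40 (SE 1.26, 95% interval -2.94 to 2.14). Its sign turned without PBS 4 (0.045) or without DT 2 (0.040).

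Bid, whose product is cut by caspase 8 and carries the death receptor signal to mitochondria, had 15, 383, 477 and 141 reads across PBS 1 to 4, against 0, 48 and 199 across DT 1 to 3. PBS 2 and PBS 3 lay above every DT library, and PBS 1 lay between DT 1 and DT 2. The level averaged 49.9 ± 42.4 CPM over PBS libraries against 14.3 ± 17.8 CPM over DT libraries (log2 fold change -1.80, SE 2.90). It was -3.50 without DT 3 and -1.24 without DT 1. The log2 fold change was 2.33 in the fit with a term for Y-linked reads, which compares DT with PBS 1 alone. Bid and Bcl2l13, a relative in the family, overlap on opposite strands in the GRCm38 annotation, and whether the counting used strand is not given in the sources used here.

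Bad encodes a protein that is held inactive by growth factor kinases. It had 0, 45, 41 and 82 reads across PBS 1 to 4, against 0, 219 and 60 across DT 1 to 3. DT 2 was highest, and replicate 1 of each group was at 0. Bad overlaps Gpr137 on the opposite strand, as Bak1 does Ggnbp1. The log2 fold change of 1.04 had an SE of 3.20. It was -0.66 without DT 2 and 9.52 with the Y-linked term, which compares DT with PBS 1 alone, where Bad was at 0. Bbc3, which encodes PUMA, a target of p53, had reads in only 3 libraries, 94 counts in PBS 4, 5 in DT 1 and 12 in DT 2, and was removed by the filter on low counts. With no filter its log2 fold change was -2.16 (edgeR adjusted p = 1.00).

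**Figure D2:**
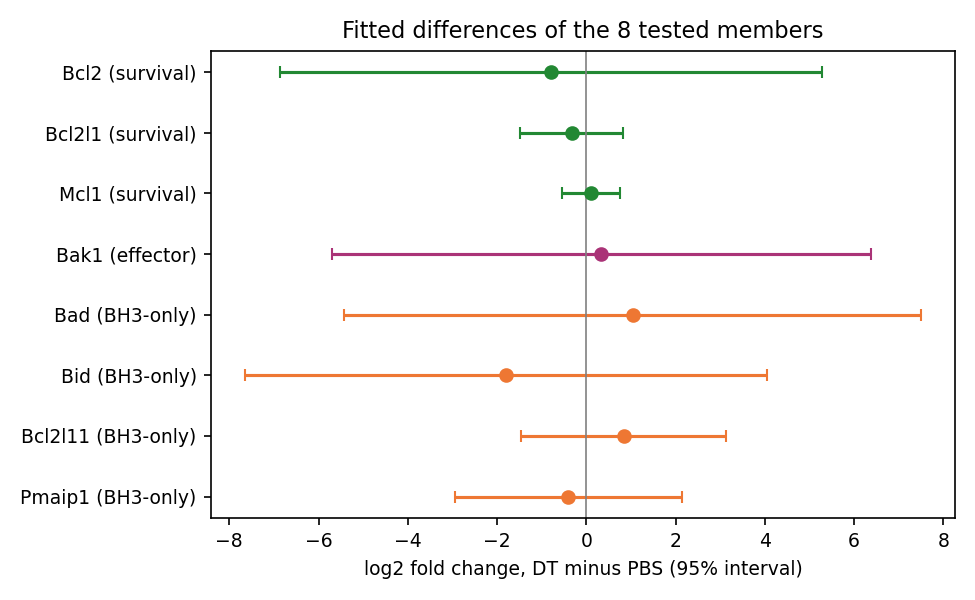
Log2 fold change (DT over PBS, horizontal axis) of the 8 tested members from the edgeR fit, with 95% intervals. The interval of every member includes 0 and is narrowest for Mcl1, at -0.54 to 0.76, and Bcl2l1, at -1.48 to 0.82.

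The intervals show how much these libraries can resolve. For Mcl1 a change beyond 0.69-fold or 1.69-fold lay outside the interval, whereas for Bcl2, Bak1, Bad and Bid the intervals spanned more than 11 log2 units. For these 4 genes a difference of several log2 units in either direction lay within the interval. Of the 70 values of the 10 members, 14 were at 0, made up of 10 of 40 in PBS and 4 of 30 in DT. Survival genes had 2 of 21 values at 0 and death genes 12 of 49. Bax held 4 of the 10 zeros in PBS and Bbc3 held 3. Of all 11487 genes with a count, 5967 to 8361 had reads in a PBS library and 5419 to 7920 in a DT library.

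**Figure D3:**
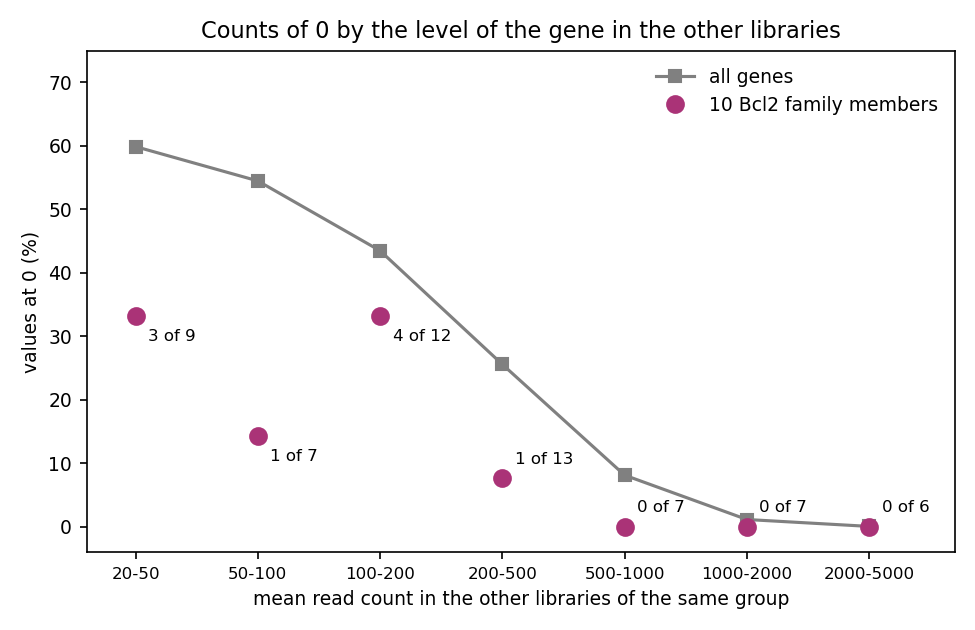
Share of values at 0 (vertical axis, %) against the mean read count of the gene in the other libraries of the same group, for all genes (grey line) and for the values of the 10 members (points, with their number). Where the other libraries averaged 100 to 200 counts, 43.5% of values of all genes and 4 of 12 member values were 0, and above 500 counts no member value was 0. Values whose other libraries averaged under 20 counts are not drawn.

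Survival genes outweighed death genes in summed reads in every library, and the balance between them did not separate DT from PBS. Because the kit reads transcript 3′ ends, reads were not divided by transcript length, and a sum over genes weighs each gene by how well its 3′ end was read. The summed level of Bcl2, Bcl2l1 and Mcl1 was 994, 1054, 926 and 898 CPM in PBS 1 to 4, against 1123, 1064 and 689 CPM in DT 1 to 3. DT 3 was the lowest library and DT 1 the highest. For the 7 death genes the sum was 174, 272, 289 and 372 CPM in PBS 1 to 4, against 344, 140 and 458 CPM in DT 1 to 3. Here too DT held the lowest and the highest library, DT 2 and DT 3.

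The ratio of survival to death reads was 5.72, 3.87, 3.20 and 2.41 in PBS 1 to 4, against 3.26, 7.62 and 1.51 in DT 1 to 3. On the log2 scale it was 1.86 ± 0.52 in PBS (SD, n = 4) and 1.74 ± 1.17 in DT (SD, n = 3). The difference of -0.11 was smaller than the pooled SD between libraries, 0.84. With the mean of log2(CPM + 1) over the genes in place of summed reads, which gives each gene equal weight, the difference was -0.78 (pooled SD 1.14). Without DT 3 the difference was 0.46, without PBS 1 it was 0.11, and without DT 2 it was -0.71. No p is given for this ratio, since it is a score over chosen genes.

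Mcl1 alone held 42.4% to 70.9% of the reads of the 10 members in a library. Without it, Bcl2 and Bcl2l1 together had 0.954, 1.62, 0.857 and 0.699 times the death reads in PBS 1 to 4, against 0.502, 1.92 and 0.442 times in DT 1 to 3. The excess of survival reads thus rested on Mcl1 in 5 of the 7 libraries, and PBS 2 and DT 2 kept it without Mcl1. The difference in log2 ratio between the groups was -0.38 without Mcl1 (pooled SD 0.84).

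**Figure D4:**
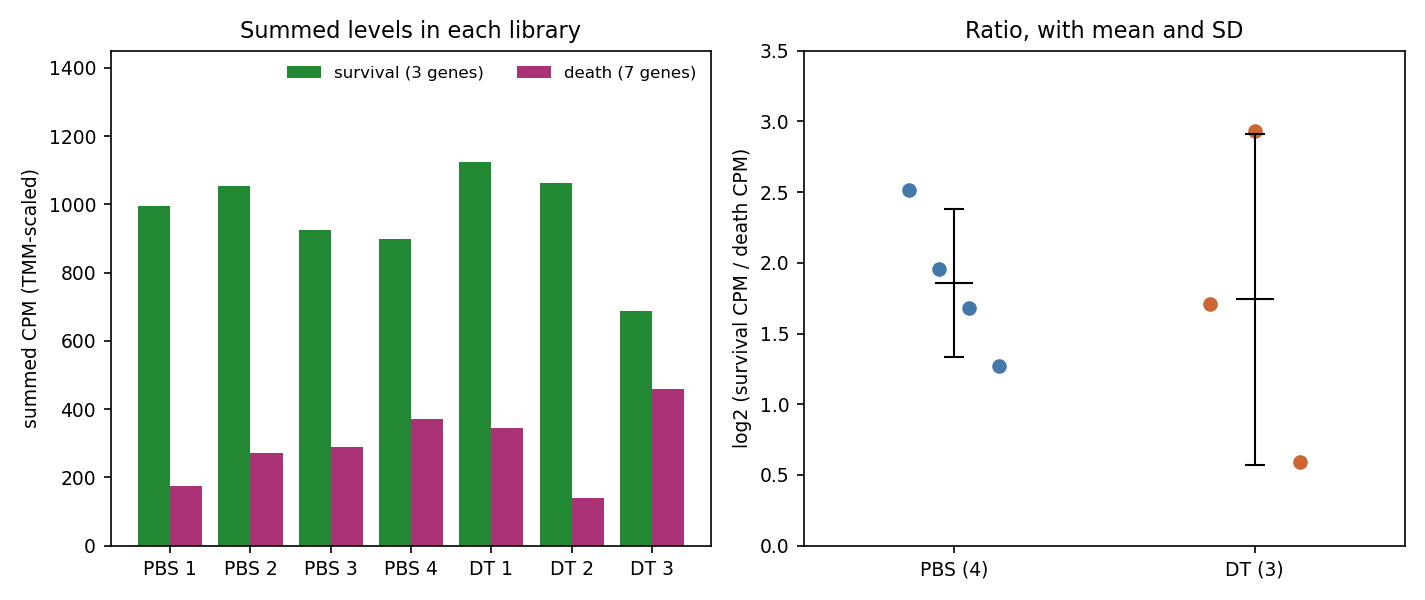
Left, summed CPM of the 3 survival and the 7 death genes in each library. Right, log2 of their ratio in each library by group, with mean and SD; DT 2 at 2.93 and DT 3 at 0.59 lie above and below all 4 PBS libraries.

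The order of the members by mean CPM began with Mcl1 and Bcl2l1 in both groups. Mcl1 was above Bcl2l1 in all 7 libraries, by 1.39-fold in PBS 2 to 5.94-fold in PBS 1, and their ranges did not overlap within either group. From Bcl2l1 downward every neighbouring pair in the order overlapped in range. In PBS the order went on with Pmaip1, Bcl2l11, Bid, Bcl2, Bak1, Bad, Bbc3 and Bax, and in DT with Bcl2l11, Pmaip1, Bak1, Bax, Bcl2, Bad, Bid and Bbc3. Mcl1 exceeded Bcl2l11 by 2.34-fold in DT 3 to 19.6-fold in PBS 2, and exceeded Pmaip1 by 3.07-fold in PBS 4 to 438-fold in PBS 1, where Pmaip1 had 10 counts.

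The genes whose levels followed Mcl1 most closely over the 7 libraries, among 2429 candidates read in every library, were Zcchc6, Lpgat1, Mga, Zfp263 and Ccni. Pearson's r of log2(CPM + 1) was 0.98 for Zcchc6 and 0.89 to 0.93 for the other 4. For Bcl2l1 they were Ube2d2a, Setd2, Fermt1, Rb1cc1 and Ddx52, with r of 0.90 for each. These values are the highest of 2429 over 7 points that share library depth, and are given as a description.

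Of 18 other genes of the family and its relatives, 10 had reads and 6 were tested, of which 0 passed in either direction, with 1 positive and 5 negative log2 fold changes and a median of -0.91. Bok, an effector-like member, had 1197, 474, 428 and 742 reads across PBS 1 to 4, against 180, 723 and 566 across DT 1 to 3 (log2 fold change -0.66, SE 1.05). PBS 1 was highest and DT 1 lowest, with the others mixed. Bcl2l13, Bnip3l and Bnip2 had log2 fold changes of -1.15, -0.19 and 0.06, and the survival gene Bcl2l2 and the BH3-only gene Bik had -2.70 and -1.49, with SE of 1.71 to 3.58 for these 5. Bcl2a1b had 106 counts in PBS 3 and 201 in DT 3 and none elsewhere, Bcl2a1d had 3 counts in DT 2, and reads of these near-identical copies may have been split between them. Bcl2l12 and Bnip3 had reads in PBS 4 alone (102 and 193 counts). Bmf, Hrk, Bcl2l10, Bcl2l14, Bcl2l15, Bnipl, Bcl2a1a and Bcl2a1c had 0 counts in every library.

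Downstream of the mitochondrion, 16 of 21 listed genes for caspases, their activators and their inhibitors were tested, and 0 passed in either direction (9 positive, 7 negative, median log2 fold change 0.25). The 4 with the smallest p were Vdac1, Aifm1, Birc2 and Casp9. Vdac1, a channel of the mitochondrial outer membrane, had 426, 217, 1 and 754 reads across PBS 1 to 4, against 1362, 695 and 1649 across DT 1 to 3. PBS 4 lay above DT 2 in CPM, so the groups overlapped (log2 fold change 1.65, SE 1.06). Aifm1, the apoptosis-inducing factor gene, had 0, 13, 105 and 68 reads across PBS 1 to 4, against 0, 1064 and 575 across DT 1 to 3 (log2 fold change 3.41, SE 2.62). DT 2 and DT 3 were high and DT 1 was at 0. Birc2, which encodes the inhibitor cIAP1, had a log2 fold change of 0.88 (SE 0.86), and Casp9, the caspase of the apoptosome, 3.39 (SE 3.47).

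In the death receptor list, which meets the family at Bid, 8 of 14 genes were tested and 0 passed (6 positive, 2 negative, median log2 fold change 0.40). Tnfrsf1a, the main TNF receptor gene, had 971, 1523, 851 and 589 reads across PBS 1 to 4, against 1613, 1348 and 1912 across DT 1 to 3. It averaged 190 ± 74.9 CPM over PBS libraries against 279 ± 43.8 CPM over DT libraries, with overlap at PBS 2 (log2 fold change 0.55, SE 0.54). Mlkl, the pore former of necroptosis, had 18, 0, 10 and 0 reads across PBS 1 to 4, against 135, 471 and 31 across DT 1 to 3. Every DT library was above every PBS library, as in 3.73% of all tested genes, and the log2 fold change of 4.78 had an SE of 3.49. Traf2 and Tnf had log2 fold changes of 1.60 and -1.07, with SE of 3.29 and 2.44.

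Among 21 tested of 23 genes known to act on the family from upstream, 0 passed, with 11 positive and 10 negative log2 fold changes and a median of 0.03. Atf3, a stress-induced transcription factor, was the 1 gene of these lists with an unadjusted p under 0.05. It had 2494, 910, 1150 and 2419 reads across PBS 1 to 4, against 5745, 2068 and 3086 across DT 1 to 3. DT 1 was highest and DT 2 lay within the PBS range (log2 fold change 0.87, SE 0.40, edgeR adjusted p = 1.00). Huwe1, a ubiquitin ligase known to target MCL1, averaged 308 ± 23.5 CPM over PBS libraries against 177 ± 45.5 CPM over DT libraries, with every DT library below every PBS library, as in 2.58% of all tested genes (log2 fold change -0.80, SE 0.51). Ywhaz, a phosphoserine-binding adaptor of the kind that holds BAD in the cytosol, had a log2 fold change of 0.71 (SE 0.38), and the kinase gene Pim3 had -0.84 (SE 0.64).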

How the data were processed

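The members were taken by symbol, and they, the other gene lists and the tests were chosen with earlier results of these data known. The deposited values of the 7 libraries are unnormalized read counts for gene symbols. Per the labels' protocols, a QuantSeq FWD kit, which primes at transcript 3′ ends, was used on 100 ng of RNA. Per the submitters' processing notes, mm9 was the build. The identity of the aligner, counter and annotation is not given in the sources used here, nor is any use of molecular identifiers. The table has no coordinates. Groups and replicate numbers came from sample titles.

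Library sizes (4805018 to 6285624 counts) were scaled by TMM. The filterByExpr function kept 7688 of 11487 genes with a count, and DT was compared with PBS by the quasi-likelihood F test of edgeR 4.0.16 (R 4.3.3, robust, two-sided), with Benjamini-Hochberg adjustment over all tested genes and a threshold of 0.05. SE came from the fold change and F, and 95% intervals from the t distribution of the fit. Floors are 3 counts per library and cover counting error only, since PCR reads are not independent molecules. Scripts were tested on simulated data. Alternatives were other scalings (RLE, upper quartile), no filter, a minimum average log2 CPM of 3, DESeq2 1.42.0, limma-voom (limma 3.58.1) with sample weights, the replicate number as a block, covariates (presence of Y-linked reads, hepatocyte and macrophage scores) and leaving out each library. Leaving out PBS 1 and PBS 4 together was chosen after seeing the data. Overlapping genes came from GENCODE M21 (GRCm38), another build, by name only. Named genes were the members, other family genes with a count, the 4 smallest p of each pathway list, and the 5 most alike genes, by Pearson's r, for each of Mcl1 and Bcl2l1. Figures were drawn with matplotlib 3.10.9.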

Additional observations from a re-analysis of the deposited data

Results flagged for a closer look

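Of 35 values over the 4 PBS libraries, 5 had a library whose gap to the nearest other exceeded Dixon's critical share of the group's range, where 1.75 are expected by chance. In each the share was 1, since 3 of the 4 PBS libraries were at 0. The rule gives a share of 1 to any gene with such zeros, so the number expected by chance is no measure for these 5. PBS 4 alone had reads of Bbc3 (18.1 CPM), Bcl2l12 (19.6 CPM) and Bnip3 (37.2 CPM), PBS 2 alone of Casp9 (9.81 CPM) and PBS 3 alone of Bcl2a1b (21.3 CPM).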

How the results depend on the processing

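No member passed in any of the 18 alternatives, and the lowest adjusted p of the 8 tested members was 0.697 (Pmaip1 and Bad, both with the Y-linked covariate). Over all genes, higher and lower calls numbered 1 and 7 with no filter, 29 and 82 by DESeq2, 15 and 6 by limma-voom and 6 and 6 with the replicate block. Higher calls were 1 with a minimum average log2 CPM of 3, 23 with the Y-linked covariate and 2 without PBS 1 and PBS 4, and lower calls were 0 with the hepatocyte score. With any 1 library left out there were 0 to 1 higher calls and 1 to 4 lower calls, 2 to 6 members with a positive fold change, and a survival to death log2 difference of -0.71 to 0.46. Of 144 member values under alternatives, 21 had the opposite sign. By limma-voom these were Bcl2 (0.99), Mcl1 (-0.031) and Bak1 (-0.52). With the Y-linked covariate, which compares DT with PBS 1 alone, they were Bcl2l1 (0.48), Mcl1 (-0.16), Bak1 (-1.23), Bid (2.33) and Pmaip1 (5.49). With the hepatocyte score they were Bcl2l1 (0.61) and Bad (-3.24), with the macrophage score Bad (-0.14), with the replicate block Pmaip1 (0.75), and without PBS 1 and PBS 4 Bcl2 (0.33). With 1 library left out, the ranges were -1.32 to 0.035 (Bcl2), -0.53 to 0.13 (Bcl2l1), -0.13 to 0.33 (Mcl1), -0.99 to 1.87 (Bak1), -0.66 to 1.61 (Bad), -3.50 to -1.24 (Bid), 0.42 to 1.19 (Bcl2l11) and -0.84 to 0.045 (Pmaip1). The mean log2(CPM + 1) of Bbc3 differed by -0.22 (-0.64 to 0.84 when 1 library was left out, 0.84 without PBS 1 and PBS 4), and that of Bax by 3.92 (3.03 to 5.35). Except for fewer libraries, the cause was not tested. Deviations from group means over 707 genes correlated at -0.0565 to 0.00744 between same-numbered libraries, and 0 of 3 DT libraries were closest to the PBS library of equal number, so the block pairs libraries by number only. Zeros were frequent in genes under about 1000 counts.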

Other observations

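Some genes of the apoptosis lists, chosen after their values were seen, shared the pattern of Bax, with 0 counts in all 4 PBS libraries. Casp2 had 372 counts in DT 2 alone, and the death receptor gene Fas 132 counts in DT 3 alone. The reverse pattern, reads in PBS 4 and 0 in all DT libraries, was seen for Bcl2l12 and Bnip3.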
